A study of Mus musculus with 5 samples.

Results

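Genes of glycolysis, glycogen metabolism and the pentose phosphate pathway were compared between brain dendritic cells (DCs) and bone marrow monocytes of the mouse. The set is a list of 42 gene symbols, 28 of glucose uptake, glycolysis and pyruvate use with the regulator Hif1a, 7 of glycogen and 7 of the pentose phosphate pathway. A member was measured when the array held a probe set annotated to its symbol alone, which was so for 39 of the 42 among 18193 genes. The platform annotation used here gave no probe set to Gpi1, Eno1 or G6pdx, so these members have no value, and 26, 7 and 6 genes of the respective pathways remained. Brain DCs (2 arrays) were sorted as Lin-CD45hiCD11c+ cells from brains of C57BL/6 females aged 6 to 8 weeks that carried a B16-Flt3L tumor under the skin, injected 12 days before harvest. The B16 line comes from mouse melanoma, and Flt3L is a growth factor that expands dendritic cells, so these cells come from tumour-bearing animals with added Flt3L. Monocytes (3 arrays) were sorted as SSCloCD11bhi CD115+ cells from bone marrow of C57BL/6 females of the same age, for which the labels give no tumour and no treatment. Cell type, tissue and tumour treatment therefore cannot be told apart, and the labels do not state that each array had its own animals. A p-value here therefore speaks of the spread among these arrays, which could be technical.

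Glycolysis splits glucose to pyruvate in the cytosol and yields ATP without oxygen. Its pace is set mainly by glucose transport, hexokinase, phosphofructokinase and pyruvate kinase, most of which exist as isoenzymes from separate genes. Glycogen is the cell's stored glucose, released by glycogen phosphorylase. The pentose phosphate pathway branches off after hexokinase: its oxidative arm makes NADPH, which phagocytes spend on the oxidative burst and on lipid synthesis, and its non-oxidative arm makes and recycles ribose. Dendritic cells raise glycolysis on activation, and neutrophils and monocytes keep glycogen as a reserve.

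The promoters of 5 members that differed strongly are shown first, because the hypoxia element that HIF binds, with the core ACGTG, is the best known shared motif of glycolytic promoters. Each window is the 250 bases before the start of the gene, from RefSeq on build GRCm38.p6, the most upstream start where a gene has several. Capitals mark ACGTG on either strand in the first 4 windows and the GC box GGGCGG in the last. Slc2a1 (chr4:119108495-119108744, plus strand) and Ldha (chr7:46845554-46845803, plus strand) were higher in brain DCs. Hk2 (chr6:82774455-82774704, minus strand), Pygl (chr12:70227684-70227933, minus strand) and Pgd (chr4:149166706-149166955, minus strand) were lower.
Slc2a1: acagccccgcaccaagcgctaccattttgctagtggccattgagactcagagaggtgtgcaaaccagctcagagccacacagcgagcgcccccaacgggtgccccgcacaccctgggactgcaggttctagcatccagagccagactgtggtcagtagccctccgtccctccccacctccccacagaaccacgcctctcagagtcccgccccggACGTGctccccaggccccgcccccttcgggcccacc
Ldha: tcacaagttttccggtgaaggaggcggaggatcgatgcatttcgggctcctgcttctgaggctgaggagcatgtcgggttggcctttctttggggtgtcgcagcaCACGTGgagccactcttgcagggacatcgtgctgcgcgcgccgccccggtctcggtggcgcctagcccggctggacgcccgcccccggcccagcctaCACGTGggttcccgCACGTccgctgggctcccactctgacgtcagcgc
Hk2: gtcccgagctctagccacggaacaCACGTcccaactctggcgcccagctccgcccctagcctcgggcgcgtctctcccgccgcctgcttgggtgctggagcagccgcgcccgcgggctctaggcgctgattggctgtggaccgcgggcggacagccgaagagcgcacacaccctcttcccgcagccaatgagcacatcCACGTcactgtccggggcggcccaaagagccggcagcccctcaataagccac
Pygl: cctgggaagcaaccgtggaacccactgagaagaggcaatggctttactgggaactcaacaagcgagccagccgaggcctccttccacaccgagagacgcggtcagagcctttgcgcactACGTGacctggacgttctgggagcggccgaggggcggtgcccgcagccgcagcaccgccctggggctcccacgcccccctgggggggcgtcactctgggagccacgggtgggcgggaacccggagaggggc
Pgd: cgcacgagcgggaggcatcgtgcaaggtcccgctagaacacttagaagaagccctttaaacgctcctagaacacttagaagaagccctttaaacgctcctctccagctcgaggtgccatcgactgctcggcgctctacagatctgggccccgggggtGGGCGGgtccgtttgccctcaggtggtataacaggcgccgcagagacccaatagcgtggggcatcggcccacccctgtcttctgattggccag
The hypoxia core thus stood in windows of genes that differed in either direction. RefSeq windows were matched for 41 of the 42 members by symbol, 55 windows in all. ACGTG was in 17 of 39 windows of the glycolysis members (43.6%), 5 of 8 of the glycogen members (62.5%) and 0 of 8 of the pentose phosphate members, against 16.6% of all 32851 windows. By call it was in 4 of 8 windows of members higher in brain DCs, 7 of 16 of lower members and 11 of 26 of members not called. The E-box CACGTG, which contains ACGTG on both strands and is bound by Myc among others, was in 5 glycolysis windows (12.8%) against 6.02% of all windows. The GC box GGGCGG was in 7 of 8 pentose phosphate windows (87.5%) against 32.7%, and the antioxidant element TGACNNNGC in 1 of 8 (12.5%) against 10.2%. All motifs were searched on both strands, and windows of the same gene can overlap. Member windows also held more G and C than others, a median of 60.4% against 52.4%, and a match is a description of letters, not of binding.

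Each value is a log2 signal set against the probe set's own baseline and averaged over the probe sets of a gene, so differences between arrays have meaning and levels of different genes do not. A difference is the brain DC mean minus the monocyte mean on the log2 scale, and ± gives its SE in limma across all genes (n = 2 and 3 arrays), and a call is an adjusted p under 0.05. In bulk RNA, fewer cells of a kind and less RNA per cell cannot be told apart. The sort markers followed the labels, with Itgax (CD11c) higher by 5.02 in brain DCs and Itgam (CD11b) and Csf1r (CD115) lower by 2.28 and 1.40, given as a check only. All 8 dendritic cell markers were called higher, and all 6 measured monocyte markers were called lower. The first list includes the sort marker Itgax and the second Itgam and Csf1r, so these calls belong to the same check. The second list also holds Cd177 (-5.67), which is a neutrophil antigen too and was not counted among the neutrophil markers below.

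Control probe sets also differed between the groups, those of the glycolytic gene Gapdh among them. The array carries control probe sets at the 5', middle and 3' parts of the Gapdh transcript. At the 3' end the arrays lay close together, at -0.22 and 0.19 in brain DCs against 0.16, 0.16 and 0.00 in monocytes. The 5' probe set was at 0.12 and 0.41 in brain DCs but at -2.62, -2.70 and -2.28 in monocytes. The group difference for 1 and the same transcript therefore ran from -0.12 at the 3' end through 0.61 in the middle to 2.80 at the 5' end. Actb behaved in the same way, with 3' minus 5' values of 3.99, 3.98 and 1.60 in monocytes against -0.16 and -0.31 in brain DCs, whereas Tfrc did not (group means of -0.60 and -0.70). All 24 poly-A spike-in probe sets read higher on the brain DC arrays (median difference 2.59), and so did all 18 probe sets of the hybridisation spike-ins (median 1.04), which are added after labelling. The place of each member's probe sets along its transcript was not used here, so the part of these control differences in the member values was not tested.

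**Figure D1:**
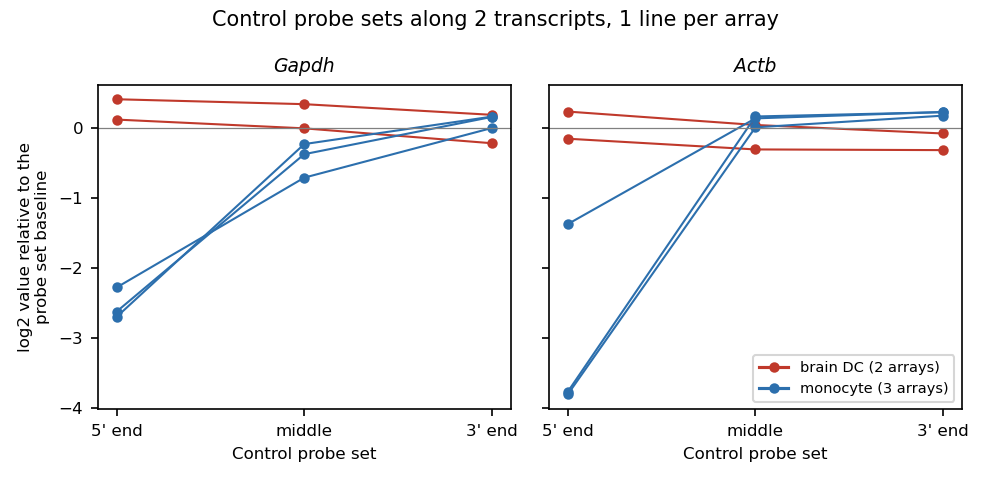
Control probe sets at the 5' end, middle and 3' end of Gapdh and Actb (x axis) with the log2 value relative to the probe set baseline (y axis), 1 line per array, red for the 2 brain DC and blue for the 3 monocyte arrays. The groups are close at the 3' end, and at the 5' end of Gapdh the monocyte arrays lie between -2.70 and -2.28.

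Of the 39 measured members, brain DCs had 7 at higher and 13 at lower values, and 19 were not called. That is 51.3% called, where 33.8% of all 18193 genes were called, 16.9% higher and 16.9% lower. By pathway the share called was 50% for glycolysis, 42.9% for glycogen and 66.7% for pentose phosphate members. Of 96 measured genes in the other pathway lists given below, 42.7% were called, and single lists ran from 25% to 50%. Shares of such short lists were not tested against that of all genes. The median difference was -0.11 over the members and 0.09 over all genes, and the median size of the difference, without its sign, was 0.48 against 0.31. The groups did not overlap for 27 members, where 60.2% of all genes did not overlap. At least 2-fold differences were called for 11 members, 5 higher and 6 lower (13.5% of all genes). Among the 19 members not called, the 95% interval of the difference stayed within a 2-fold change in either direction for 18, the exception being Rpe.

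**Figure D2:**
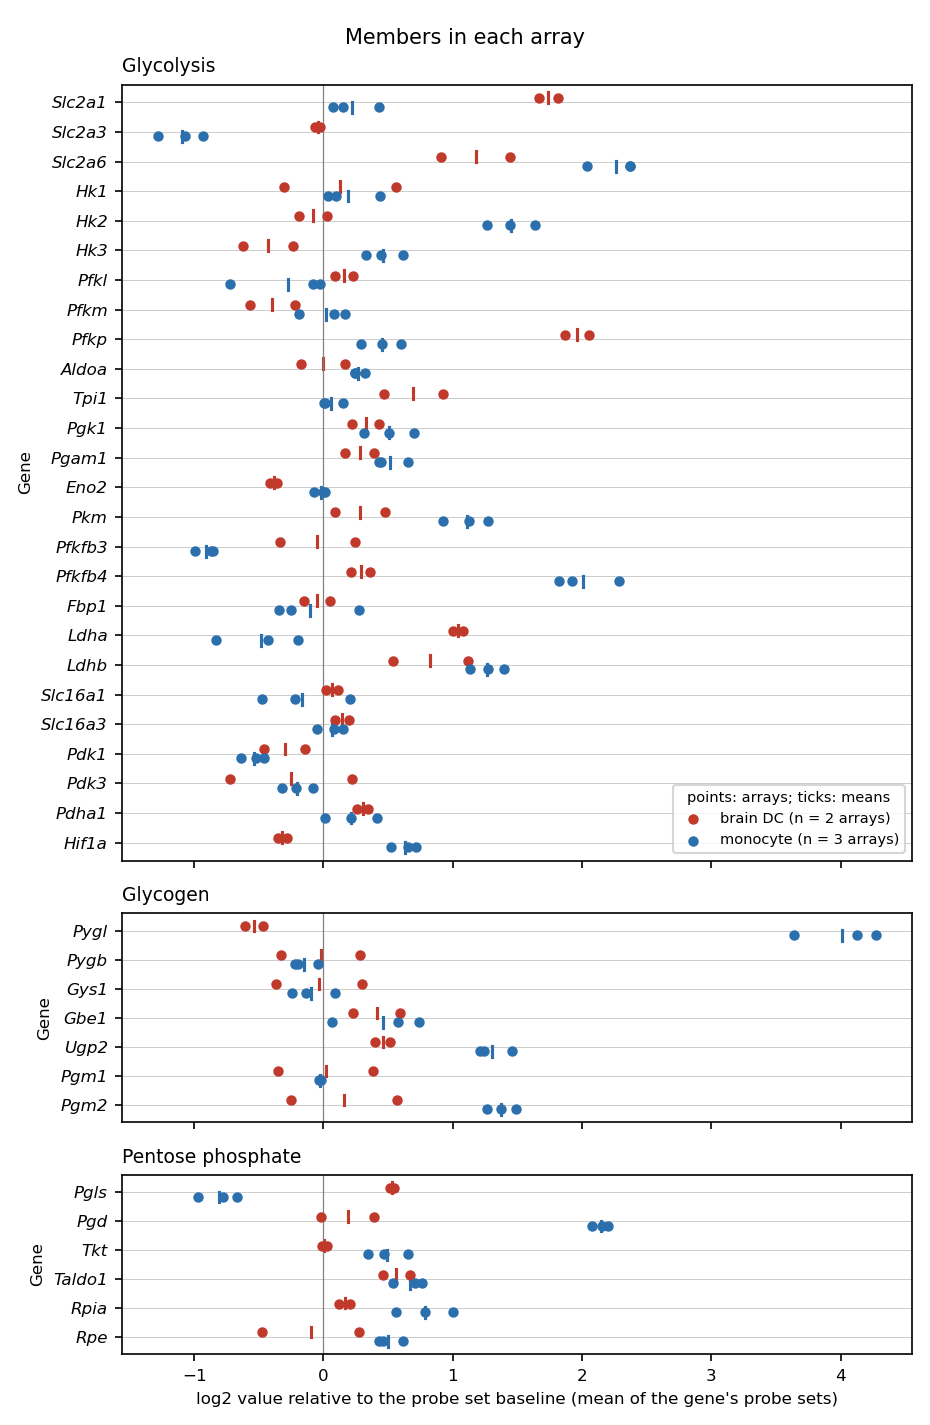
The 39 measured members (y axis) by pathway with their log2 value relative to the probe set baseline (x axis); red points are the 2 brain DC arrays, blue points the 3 monocyte arrays, ticks the group means. Pygl has the widest gap, with brain DC arrays at -0.47 and -0.61 and monocyte arrays between 3.64 and 4.27.

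The glucose transporters went in opposite directions. Slc2a1, the widespread basal glucose transporter, had values of 1.67 and 1.81 in the brain DC arrays and of 0.15, 0.08 and 0.43 in the monocyte arrays. The brain DC value was 2.86-fold higher (1.52 ± 0.15 SE, limma adjusted p = 0.000316), and its 3 probe sets were all called, between 1.14 and 1.79. Slc2a3, a high-affinity transporter of neurons and leukocytes, was at -0.07 and -0.02 against -1.28, -0.93 and -1.07, 2.06-fold higher (1.05 ± 0.14, limma adjusted p = 0.00135). Its probe sets fell into 2 kinds: those at 2.03 and 1.92 were called, while those at 0.03 and 0.21 were not. Without the probe sets whose IDs end in _s_at or _x_at, which can match several transcripts, the Slc2a3 difference was 0.12 (limma adjusted p = 0.61), and the probe set of highest mean alone gave 0.21 (limma adjusted p = 0.466). Slc2a6, a family member of intracellular membranes in macrophages, was 2.12-fold lower in brain DCs (-1.08 ± 0.19, limma adjusted p = 0.00434), at 0.91 and 1.44 against 2.37, 2.04 and 2.37. By gene value, no array of one group reached the range of the other for any of these transporters, as for 60.2% of all genes. In the Slc2a3 probe sets at 0.03 and 0.21 the groups overlapped. Markers of endothelial cells, in which Slc2a1 is abundant in brain, moved with the groups. In brain DCs 6 of 7 were called higher (16.9% of all genes were), including Vwf (4.48) and Cldn5 (2.56). The calls of Pecam1 and Kdr were both lost without monocyte replicate 2 or 3. The summed relative level of the list was 19.4 to 20.3 in brain DC arrays against 5.04 to 5.41 in monocyte arrays. The brain DCs were sorted as CD45hi, and the part of endothelial RNA in the Slc2a1 difference was not tested.

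Hexokinases, which trap glucose in the cell, were lower or not called. Hk2, the inducible isoenzyme, was at -0.19 and 0.03 in brain DCs and at 1.27, 1.44 and 1.63 in monocytes, a 2.89-fold lower value (-1.53 ± 0.15, limma adjusted p = 0.000336). Hk3, the isoenzyme enriched in myeloid cells, was 1.85-fold lower (-0.89 ± 0.16, limma adjusted p = 0.00476), with both probe sets called. Every brain DC value of Hk2 and Hk3 lay below every monocyte value, where 60.2% of all genes had no overlap between the groups. Hk1, the constitutive isoenzyme, was not called (-0.06 ± 0.26), and its 2 probe sets pointed in opposite directions, at 0.45 and -0.57.

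At phosphofructokinase, the committed step, only the platelet-type isoenzyme Pfkp was called. Pfkp was at 2.06 and 1.86 in brain DCs against 0.29, 0.60 and 0.45 in monocytes, 2.85-fold higher (1.51 ± 0.15, limma adjusted p = 0.000278), with all 3 probe sets called between 1.23 and 1.73. The liver type Pfkl was at 0.43 ± 0.22 (limma adjusted p = 0.17) and the muscle type Pfkm at -0.41 ± 0.17 (limma adjusted p = 0.0953). The enzymes that make or remove the main allosteric activator of phosphofructokinase also diverged. Pfkfb3, the strongly kinase-active form, was at -0.34 and 0.24 against -0.87, -0.85 and -0.99, 1.81-fold higher (0.86 ± 0.18, limma adjusted p = 0.00995). Pfkfb4 was at 0.36 and 0.21 against 2.28, 1.92 and 1.82, 3.30-fold lower (-1.72 ± 0.17, limma adjusted p = 0.000292). Fbp1, the gluconeogenic phosphatase that opposes phosphofructokinase, was not called (0.05 ± 0.20).

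The members from aldolase to pyruvate kinase had smaller differences, with values of both signs. Tpi1, triosephosphate isomerase, was 1.56-fold higher (0.64 ± 0.16, limma adjusted p = 0.0206), at 0.47 and 0.92 against 0.01, 0.15 and 0.01, but 1 of its 3 probe sets was called. Tpi1 missed the threshold when brain DC replicate 2 was left out (0.41, limma adjusted p = 0.0941), and likewise for monocyte replicate 1 (0.61, limma adjusted p = 0.0639) or monocyte replicate 3 (0.62, limma adjusted p = 0.0596). Pkm, which encodes the pyruvate kinase of most tissues and catalyses the last step, was at 0.09 and 0.48 against 1.13, 1.28 and 0.93, 1.77-fold lower (-0.82 ± 0.17, limma adjusted p = 0.00823). Eno2, the neuronal enolase, was 1.29-fold lower (-0.37 ± 0.12, limma adjusted p = 0.0489), and leaving out any 1 of the 5 arrays ended that call, at a limma adjusted p of 0.0946 to 0.137. Its single probe set was not called in the fit over probe sets. Aldolase A (Aldoa, -0.28 ± 0.14), phosphoglycerate kinase (Pgk1, -0.18 ± 0.16) and phosphoglycerate mutase (Pgam1, -0.23 ± 0.14) were not called. Of the 6 measured members from aldolase to pyruvate kinase, Tpi1 alone had a positive difference. Pgk1 was at 0.26 with the probe set of highest mean. Among enzymes of these steps outside the members, Aldoc (2.61) and Eno3 (2.08) were called higher. Pklr (0.33) and Pgam2 (0.14) were positive and not called. Transcripts of Aldoa, Tpi1, Pgk1, Pgam1 and Ldha have near-identical processed pseudogene copies, which probes can share.

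Of the 7 members that handle lactate and pyruvate, 1 was called, a lactate dehydrogenase gene (14.3%, against 33.8% of all genes). So short a list was not tested against that share. Ldha, the lactate dehydrogenase subunit that favours pyruvate reduction, was at 1.08 and 1.01 in brain DCs against -0.43, -0.20 and -0.83 in monocytes, 2.89-fold higher (1.53 ± 0.19, limma adjusted p = 0.000925). Its partner subunit Ldhb was at -0.44 ± 0.19 (limma adjusted p = 0.117), with 1 of 4 probe sets called, at -0.80. The lactate transporter genes Slc16a1 (0.23 ± 0.20) and Slc16a3 (0.08 ± 0.13) were not called. Nor were the pyruvate dehydrogenase kinase genes Pdk1 (0.24 ± 0.14) and Pdk3 (-0.05 ± 0.26), whose products inhibit pyruvate dehydrogenase in the mitochondrion, or Pdha1 (0.09 ± 0.15), which encodes a subunit of that enzyme. The 4 Pdk1 probe sets ranged from -0.85 to 0.96, and 2 of them were called higher.

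Hif1a, the oxygen-regulated subunit of hypoxia-inducible factor, was 1.94-fold lower in brain DCs (-0.95 ± 0.13, limma adjusted p = 0.0012), at -0.36 and -0.28 against 0.66, 0.52 and 0.72. The difference came mostly from 1 of its 4 probe sets, at -2.61 with brain DC arrays at -1.42 and -0.88 and monocyte arrays at 1.26, 1.28 and 1.84. The others were at -0.49, -0.43 and -0.28 and were not called, and the probe set of highest mean alone gave -0.49 (limma adjusted p = 0.0959). Among 8 other genes of the HIF pathway, 1 was higher, 1 lower and 6 not called. These were Epas1, the sister subunit of endothelium and macrophages (1.22 ± 0.15), and Egln1, the oxygen-sensing hydroxylase (-1.07 ± 0.15), while Vhl (-0.07) and Arnt (0.11) were not called. Of 12 measured HIF target genes outside glycolysis, 3 were higher, 3 lower and 6 not called. Ddit4 (2.27 ± 0.34) and Vegfa (0.75 ± 0.13) were higher, and Ndrg1 (-1.003 ± 0.20) and Kdm3a (-0.81 ± 0.15) were lower.

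**Figure D3:**
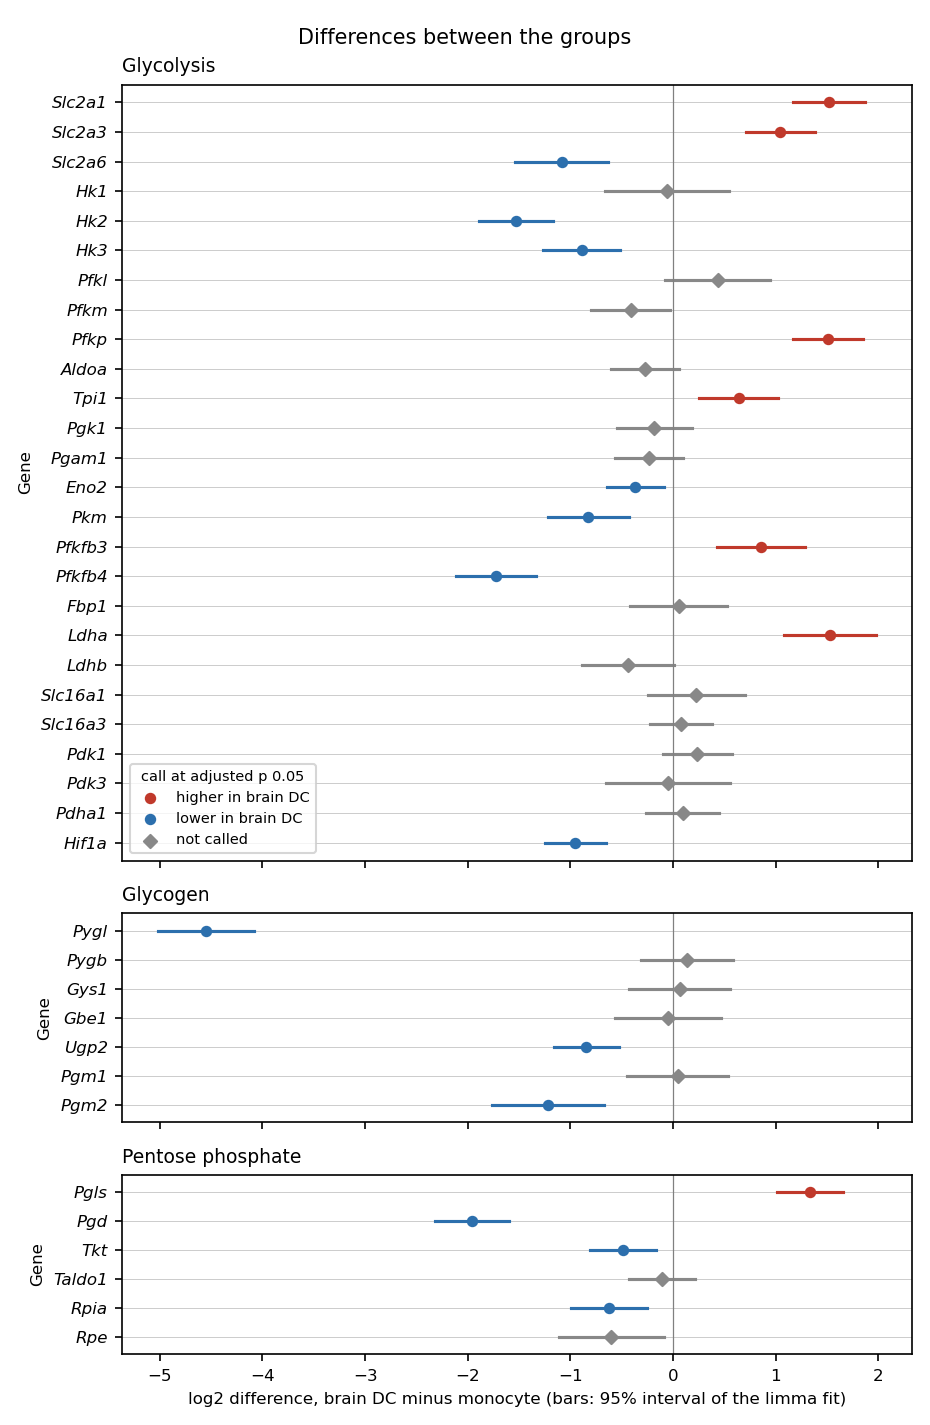
Log2 difference of each measured member, brain DC minus monocyte (x axis), by pathway (y axis), with the 95% interval of the limma fit; red and blue circles are members called higher and lower, grey diamonds members not called. Glycolysis has 6 members higher and 7 lower, glycogen 0 and 3, pentose phosphate 1 and 3.

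Glycogen genes had 0 members higher, 3 lower and 4 not called by limma (42.9% called, against 33.8% of all genes). At an unadjusted p under 0.05 in limma the counts were also 0 higher and 3 lower. Pygl, the liver-type glycogen phosphorylase that is also the main form in leukocytes, was at -0.47 and -0.61 in brain DCs against 4.12, 4.27 and 3.64 in monocytes. The difference was 23.4-fold (-4.55 ± 0.20, limma adjusted p = 7.66e-06), larger than that of any other member, and 0.291% of all genes differed by more. Its paralog Pygb, the brain-type phosphorylase, was not called (0.13 ± 0.19), at -0.33 and 0.29 against -0.22, -0.04 and -0.20. Ugp2, which makes the UDP-glucose that glycogen is built from, was 1.80-fold lower (-0.84 ± 0.14, limma adjusted p = 0.00271), with 3 of 5 probe sets called and all 5 between -1.33 and -0.38. Pgm2, a phosphoglucomutase that also acts on pentose phosphates, was at 0.57 and -0.25 against 1.49, 1.26 and 1.37, 2.33-fold lower (-1.22 ± 0.23, limma adjusted p = 0.00591). The main phosphoglucomutase Pgm1 (0.04 ± 0.21), glycogen synthase (Gys1, 0.06 ± 0.21) and branching enzyme (Gbe1, -0.05 ± 0.22) were not called. The names Pgm1 and Pgm2 follow the platform annotation and RefSeq, and were once used the other way round. The 3 called genes act on breakdown, precursor supply and sugar phosphate exchange, and the synthase and branching genes were not among them. Of 21 other measured glycogen genes, 3 were higher, 7 lower and 11 not called. Lower were Ppp1r3b (-1.41 ± 0.17), a subunit that brings phosphatase to glycogen, Pgm2l1 (-1.34 ± 0.15) and the phosphorylase kinase subunit gene Phka2 (-1.06 ± 0.22), which missed the threshold when brain DC replicate 2 was left out (-0.90, limma adjusted p = 0.0528). Stbd1, a glycogen-binding protein, was higher (1.00 ± 0.20), and Ppp1r3c (0.03) and Nhlrc1 (-0.04) were not called.

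Neutrophil markers differed in both directions. Of 12 measured neutrophil markers, 2 were higher in brain DCs, 5 lower and 5 not called (median difference 0.06), and their summed relative level was 32.1 to 45.9 in brain DC arrays against 77.6 to 161 in monocyte arrays. The lower ones were led by Mmp8 (-4.76), Mpo (-4.64), Prtn3 (-4.53) and Elane (-2.38), genes of neutrophils and their precursors, while S100a8 (-0.12) and Cxcr2 (0.25) were not called. S100a9 (1.41) and Mmp9 (0.55, a call lost under 5 of the 12 other settings) were higher, and the granule genes Camp (1.33), Ngp (1.25) and Ltf (0.92) were positive but not called. In the 3 monocyte arrays Mpo was at 1.81, 5.72 and 5.22, Elane at 0.98, 2.50 and 2.37, and Prtn3 at 4.54, 5.83 and 5.52. The lower markers Mmp8 (4.87, 4.19 and 4.90) and Csf3r (2.50, 2.45 and 2.55) varied less there. Pygl lay between 3.64 and 4.27. The Mpo call was lost at a similar size without brain DC replicate 1 (-4.72) or 2 (-4.57). Of 6 measured genes of dividing cells, 1 was higher in brain DCs, 2 lower and 3 not called, with Mki67 at -2.04 and Top2a at -1.39, and the list summed to 5.67 to 6.37 in brain DC arrays against 8.999 to 15.26 in monocyte arrays. The 1 higher gene, Pcna, was not called without brain DC replicate 1. The monocytes were sorted as SSClo CD115+, and the part of precursor or neutrophil RNA in the values of Pygl, Hk3 and Pgd was not tested.

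The pentose phosphate pathway had 1 member higher, 3 lower and 2 not called (66.7% called, against 33.8% of all genes). Its consecutive oxidative steps went opposite ways. Pgls, the lactonase that forms phosphogluconate, was at 0.51 and 0.54 in brain DCs against -0.78, -0.97 and -0.67 in monocytes, 2.52-fold higher (1.33 ± 0.14, limma adjusted p = 0.000375). Pgd, the dehydrogenase that then releases NADPH, was at -0.02 and 0.39 against 2.20, 2.15 and 2.08, 3.89-fold lower (-1.96 ± 0.15, limma adjusted p = 0.000115). All 4 Pgd probe sets were called, between -2.05 and -1.82, whereas Pgls had a single probe set. The 4 non-oxidative members all had negative differences and smaller ones. Rpia, ribose phosphate isomerase, was at 0.21 and 0.12 against 0.56, 1.00 and 0.79 (-0.62 ± 0.16, limma adjusted p = 0.0202). Tkt, transketolase, was at 0.03 and -0.01 against 0.47, 0.65 and 0.35 (-0.48 ± 0.14, limma adjusted p = 0.0306). Rpe, the epimerase, was at 0.28 and -0.47 against 0.46, 0.62 and 0.43 and was not called (-0.60 ± 0.22, limma adjusted p = 0.0706), and Taldo1, transaldolase, was at -0.11 ± 0.14. The Rpia call was lost without brain DC replicate 1 or 2 or monocyte replicate 2 or 3 (limma adjusted p from 0.0511 to 0.0809). The Tkt call was lost without brain DC replicate 1 or 2 or monocyte replicate 1 or 2 (limma adjusted p from 0.0767 to 0.0968), and with probe sets not ending in _s_at or _x_at (-0.36, limma adjusted p = 0.0991). Pgd was therefore the one of these 3 lower members still called without brain DC replicate 1 or 2 or monocyte replicate 2. Rpe passed the threshold with the median of its probe sets (-0.80, limma adjusted p = 0.0144) and when brain DC replicate 1 was left out (-0.98, limma adjusted p = 0.00682).

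Other genes listed for the supply of NADPH or ribose were taken from separate lists. Of 7 other genes listed as NADPH-producing, 0 were higher (0 also at an unadjusted p under 0.05 in limma), 3 lower and 4 not called. Idh1, the cytosolic isocitrate dehydrogenase, was at -0.32 and -0.37 against 2.98, 2.78 and 2.77, 9.11-fold lower (-3.19 ± 0.13, limma adjusted p = 5.9e-06). Malic enzyme Me2 (-1.22 ± 0.15), which works mainly with NAD, and the transhydrogenase Nnt (-1.02 ± 0.19) were lower. The Nnt probe set of highest mean, however, gave 0.34 (limma adjusted p = 0.143). Me1 (0.14), Mthfd1 (-0.16), Mthfd2 (-0.19) and Idh2 (-0.21) were not called. Among 7 other pentose phosphate genes, 1 was higher, 1 lower and 5 not called. H6pd, which runs the oxidative steps inside the endoplasmic reticulum, was lower (-1.86 ± 0.24) and Prps1, which activates ribose for nucleotide synthesis, was higher (1.16 ± 0.19), with Prps2 at 0.05 and not called.

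Isoenzymes of the same step were set against each other within arrays, which cancels any shift common to an array. For 15 pairs of paralogs, the difference between the genes in brain DCs was compared with that in monocytes by an exact two-sided permutation test, which cannot give a p below 0.1 with 2 against 3 arrays. That smallest value was reached by 12 pairs (Benjamini-Hochberg adjusted p = 0.125), so none passes 0.05 by design. Pairs of the same family share genes, and many of these genes were already called in the same arrays. No share over other gene pairs was computed, so the count of pairs is a description only. Pygl minus Pygb shifted by -4.68 from monocytes to brain DCs, Slc2a1 minus Slc2a6 by 2.60, Pfkfb3 minus Pfkfb4 by 2.58, Ldha minus Ldhb by 1.97 and Pfkm minus Pfkp by -1.93. The shift was 1.47 for Hk1 minus Hk2 and 1.26 for Pgm1 minus Pgm2. Higher p was given by Pfkl minus Pfkp (-1.08, exact permutation p = 0.2), Slc16a1 minus Slc16a3 (0.15, exact permutation p = 0.7) and Pdk1 minus Pdk3 (0.29, exact permutation p = 0.3).

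Probe sets of the same gene gave a second view of the members that had several. The other 18 members had a single probe set and so no second view. Pygl, Hk2, Pfkfb4, Ldha, Slc2a6, Pkm, Pgm2 and Pgls were among them. Of the 83 probe sets of the members, 15 were called higher and 21 lower, where 30.2% of all 34945 probe sets with 1 symbol were called. Among the 21 members with several probe sets, 7 had differences of both signs, namely Hk1, Aldoa, Pgk1, Pdk1, Pdha1, Gys1 and Pgm1, and 0 of these were called as genes. All probe sets were called for Slc2a1, Hk3, Pfkp, Pfkfb3 and Pgd. For 9 members some but not all were called, including Slc2a3, Hif1a, Tpi1, Tkt and Ugp2.

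**Figure D4:**
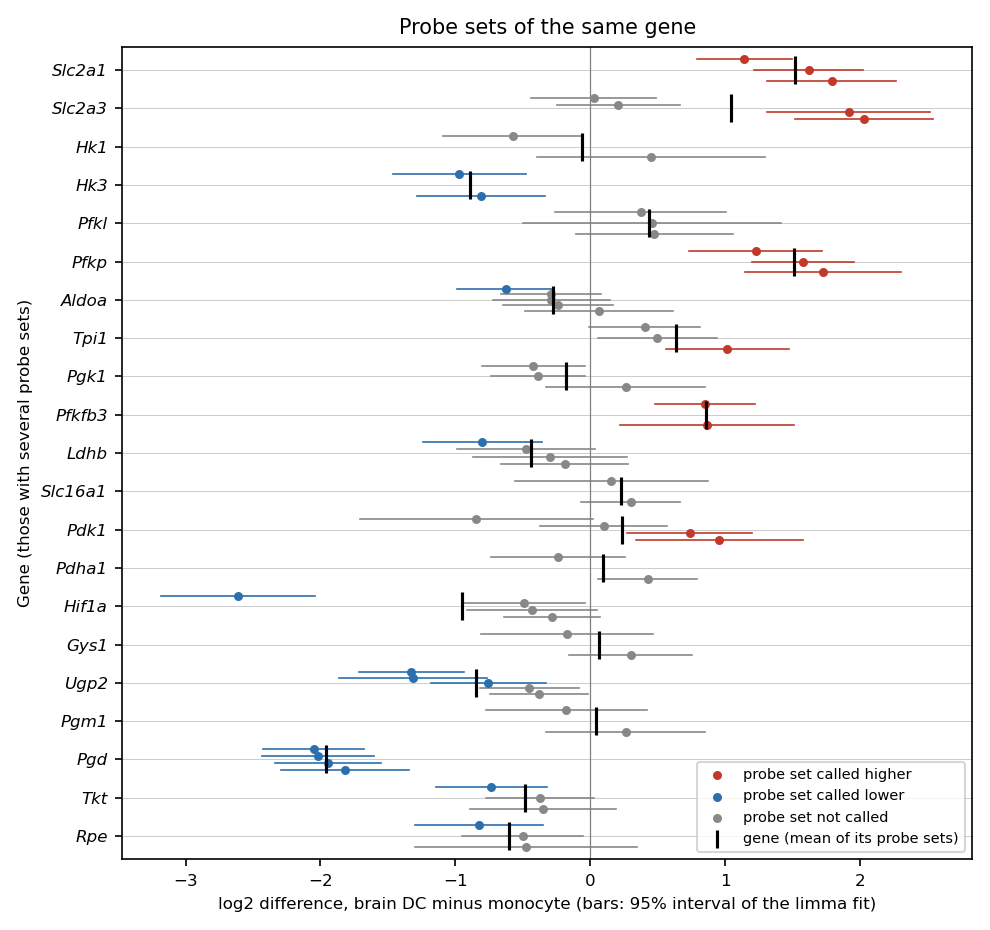
Log2 difference of each probe set, brain DC minus monocyte (x axis), for the 21 members with several probe sets (y axis), with the 95% interval of the limma fit on probe sets; red, blue and grey points are probe sets called higher, lower and not called, and black ticks the gene values. The 4 Pgd probe sets lie together, whereas those of Slc2a3 split between 0.03 and 2.03 and those of Hif1a between -2.61 and -0.28.

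Further genes around glycolysis were called in both directions. Of 18 other measured glycolysis genes, 7 were higher, 2 lower and 9 not called. Aldoc, an aldolase typical of astrocytes, was at 2.17 and 2.98 in brain DCs with monocyte arrays near 0, 6.12-fold higher (2.61 ± 0.23). Besides Aldoc, 1 of the 7 astrocyte markers was called higher, Gja1 (0.99), while Gfap (0.13) and Slc1a2 (0.18) were not called. Bsg, the chaperone that carries lactate transporters to the membrane (2.12 ± 0.13), and Eno3, the muscle enolase (2.08 ± 0.16), were higher, and the monocarboxylate transporter gene Slc16a7 was lower (-1.14 ± 0.17). Adpgk (-0.02) and Slc2a8 (0.09) were not called. Of 11 measured genes around pyruvate dehydrogenase, 2 were higher, 2 lower and 7 not called. Mpc1, a mitochondrial pyruvate carrier subunit, was higher (1.04 ± 0.26), though not once brain DC replicate 1 was left out (0.81, limma adjusted p = 0.106). Pyruvate carboxylase (Pcx) was higher too (0.51 ± 0.16), a call lost under 7 of the 12 other settings. Pdpr (-1.11 ± 0.17) and Pdhx (-0.72 ± 0.12) were lower, and Pdk4 (0.11) and Pdhb (-0.13) were not called.

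Among 12 measured regulators of glucose use, 2 were higher, 3 lower and 7 not called. Myc, a transcription factor that drives glycolytic genes, was at -0.06 and 0.01 against -1.51, -1.21 and -1.23 (1.29 ± 0.14, limma adjusted p = 0.000514). Nfe2l2, the antioxidant regulator that binds promoters of pentose phosphate genes, was higher (1.12 ± 0.15), but its probe set of highest mean gave 0.20 (limma adjusted p = 0.566). Prkaa1, a catalytic subunit of AMP-activated kinase, was 3.23-fold lower (-1.69 ± 0.22). Txnip, a brake on glucose uptake, was lower (-0.96 ± 0.26, limma adjusted p = 0.0257), a call lost without brain DC replicate 1 or 2 or monocyte replicate 1 or 2 (limma adjusted p from 0.0665 to 0.11). Without brain DC replicate 2 the lower regulator Mlxip also missed the threshold (-0.565, limma adjusted p = 0.0825), which left 1 of the 3 lower calls. Rptor (0.05) and Prkaa2 (0.16) were not called.

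Other marker lists were counted too, although a called marker does not by itself name the cell that its RNA came from. In brain DCs, 6 of 6 microglial markers, 3 of 6 natural killer cell markers, 3 of 6 T cell markers, 2 of 7 choroid plexus markers, 2 of 5 oligodendrocyte markers, 2 of 5 red cell markers and 1 of 4 B cell markers were called higher by limma, and 0 of these lists' genes were lower, also at an unadjusted p under 0.05. The T cell markers called were Cd2 (1.48), Cd8a (1.06) and Cd3d (0.45), while Cd3e (0.19), Cd3g (0.48) and Cd4 (0.14) were not called. The summed relative level of the microglial list was 15.9 to 21.1 in brain DC arrays against 3.92 to 4.58 in monocyte arrays. Both red cell calls were lost without monocyte replicate 1 (Alas2 at a limma adjusted p of 0.0929, Epor at 0.0752) or 2 (0.0519 and 0.0615). The calls of the oligodendrocyte gene Mag and the T cell gene Cd3d were each lost under 8 of the 12 other settings, and that of the choroid plexus gene Clic6 without brain DC replicate 2. The choroid plexus list summed to 129 to 134 against 5.45 to 5.98, led by Ttr (7.22). Of 6 neuronal markers, 0 were called by limma, with 0 at an unadjusted p under 0.05, and of 6 melanoma line markers 1 was called, lower. Immediate early genes, which respond to tissue handling among other stimuli, were higher for 10 of 11. The part of these differences in the member values was not tested.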

How the data were processed

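Total RNA of 5 sorted samples was hybridised to Affymetrix arrays, 1 per sample. RMA made the deposited values according to the submitters' processing notes. These deposited values are treated as log2, since they lie around 0 (array medians -0.05 to 0.00) with a range of up to 8.86 within a probe set; the log base is inferred, and neither the RMA version nor the centring was given in the labels. Levels and detection are therefore lost, and no filter on dim genes was possible. Of 45101 probe sets, 64 are controls and 34945 carry 1 gene symbol, covering 18193 genes. A gene's value is the mean of its probe sets. Members' Entrez identifiers matched those of the RefSeq table (GRCm38.p6). The group comparison used lmFit and eBayes of limma 3.58.1 under R 4.3.3 (residual df 3, prior df 4.43, no covariate) with Benjamini-Hochberg adjustment over all genes at 0.05. No scanner files were used. The script was tested on simulated data. The number of arrays limits the precision. Members and lists were chosen with earlier results of these data known. Named genes are all members and, of each other list, up to 4 called genes with the largest difference and up to 2 uncalled ones with the smallest. Some marker lists are given by count only. S100a9, Mmp9, Camp, Ngp, Ltf, Csf3r, Idh2, Mthfd2, Mlxip, Pklr, Pgam2, Cd3g, Pecam1 and Kdr were named outside this rule after their values were seen. Alternatives changed the choice of probe sets, normalisation, variance model, replicate block and left-out arrays. Marker sums add 2 to the power of each value over a list. Genes far above their own baseline therefore weigh most, and a sum is not the level of a cell type.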

Additional observations from a re-analysis of the deposited data

How the results depend on the processing

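The numbers of members called kept within 1.5 times of the reported ones under all 12 alternatives, except the lower pentose phosphate members, 3 as reported and between 1 and 2 when an array was left out. Of 468 comparisons of a member with an alternative, 439 kept the call or its absence, 24 lost the call, 5 gained it and 0 reversed a called direction. The 439 include members called under neither fit whose sign changed. Pgk1, for example, went from -0.18 to 0.26 with the probe set of highest mean. For the 18 members with 1 probe set, the alternatives in the choice of probe sets left the values unchanged. A call kept there says little, since only the fit around those values moved. Of the 20 called members, 14 were called under every alternative, and Slc2a3, Tpi1, Eno2, Hif1a, Tkt and Rpia were not. Ldhb gained a call (-0.73, limma adjusted p = 0.0207) when brain DC replicate 2 was left out and with the probe set of highest mean, where Pdk1 also did (0.96, limma adjusted p = 0.0292). Over all genes, 3068 higher and 3083 lower calls became 2699 and 3250 with arrays centred on their median, and 2595 and 3133 with the probe set of highest mean, a choice that has little meaning for centred values. The labels number the samples 1 and 2 in both groups without saying that numbers pair them; with the replicate block 2513 genes were higher and 3006 lower, 6 and 6 glycolysis members, 0 and 3 glycogen members and 1 and 3 pentose phosphate members, with Eno2 the only member to lose its call (limma adjusted p = 0.11). Without a brain DC array the lone array is assumed to vary like the monocytes. A filter on dim genes and another background correction were not run, since the values keep no level and no scanner intensities were used. With 5 arrays and unknown signal over background, a small difference in a dim gene cannot be told from none.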
